A study of Danio rerio with 3 samples.

Results

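The ventral homeobox genes ved, vent, vox, eve1 and evx1 were followed in whole zebrafish (Danio rerio) at 22 hours post fertilization (hpf), in embryos that had received MO-grnA and in wild-type embryos left without treatment. The members were taken as every probe whose accession in the array files carries 1 of these 5 symbols in the RefSeq gene table, which gave 8 probes for 5 genes out of 11668 named genes on the array. There were 2 probes each for ved, vent and vox and 1 each for eve1 and evx1. The 5 symbols were selected on knowledge of the log2 ratios of this same contrast, so their ratios are a description and carry no test of their own.

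The reagent MO-grnA belongs to the morpholinos, antisense oligomers that block an RNA, and is named for granulin A, a progranulin of zebrafish. Embryos at the 1-cell stage were injected with 2 to 3 nl of it. The labels give the treatment of the wild-type embryos as none, with no control morpholino, so injection and knockdown cannot be told apart. Each of 3 two-colour Agilent arrays paired RNA from a pool of 200 morphant embryos with RNA from a pool of 200 wild-type embryos. Morphant RNA was labelled with Cy5 on replicates 1 and 2 and with Cy3 on replicate 3. The labels title this last array only as a dye swap, without a replicate number, and it is called replicate 3 here. They do not say whether its RNA came from embryo pools separate from those of replicate 2. In what follows, n counts arrays.

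In the early zebrafish embryo, BMP ligands and Wnt8 switch on vox, vent and ved on the ventral and lateral sides. The 3 genes encode related homeodomain repressors with overlapping functions, and they keep organizer genes such as goosecoid and chordin out of ventral tissue. The even-skipped relative eve1 marks ventral and posterior cells of the gastrula and later the tail bud. Its relative evx1 is also known as a gene of spinal cord interneurons. In the RefSeq gene table of assembly GRCz12tu, vent and vox lie next to each other with 0 annotated genes between them.

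Slide 1 carried replicate 1, and slide 2 carried the other arrays. On replicate 1, 7.49% of spots other than controls carried the scanner software's mark for uneven or outlying spots. The share was 0.915% and 0.909% on replicates 2 and 3. The count of spots well above background per array ranged from 28635 to 31551 for morphant RNA, against 28822 to 31010 for wild-type RNA. Median raw intensities on replicates 1, 2 and 3 were 446.5, 153 and 114 in morphant channels, against 191, 110.5 and 170 in wild-type channels. The Cy5 channel was the brighter one on each array, so the ratios depend on the normalization. Of 59 tissue markers at 22 hpf (muscle, blood, heart, neurons, pigment cells, notochord, epidermis, hatching gland and yolk syncytial layer), 33 were measured. A measured gene had to have a probe unmarked on all 3 arrays and well above background on all 3 in at least 1 channel. That 0 of the 33 lacked a well-measured signal in either group is largely set by this filter and is no check of the samples. The number of arrays, 3, limits the precision. Both groups were present on every array, so slide and group are not confounded.

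The signals of ved, vent, vox and eve1 were lower in morphants, and that of evx1 was slightly higher. The falls were deepest for ved, intermediate for vent on its brighter probe, and smaller for eve1 and vox. All member probes were well above background in both channels on all 3 arrays, and 0 were saturated. A ratio was called when its adjusted p from limma's moderated test over all 25066 tested probes was under 0.05. By that rule 6 of the 6 tested member probes were lower and 0 higher, beside 19.6% of all tested probes called lower, 18% called higher and 37.6% called in either direction. Nothing is read from that count, because the choice of the genes used the same contrast. The probes of eve1 and evx1 carried the scanner mark on replicate 1 and were left out of the fit, so their means rest on replicates 2 and 3.

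**Figure D1:**
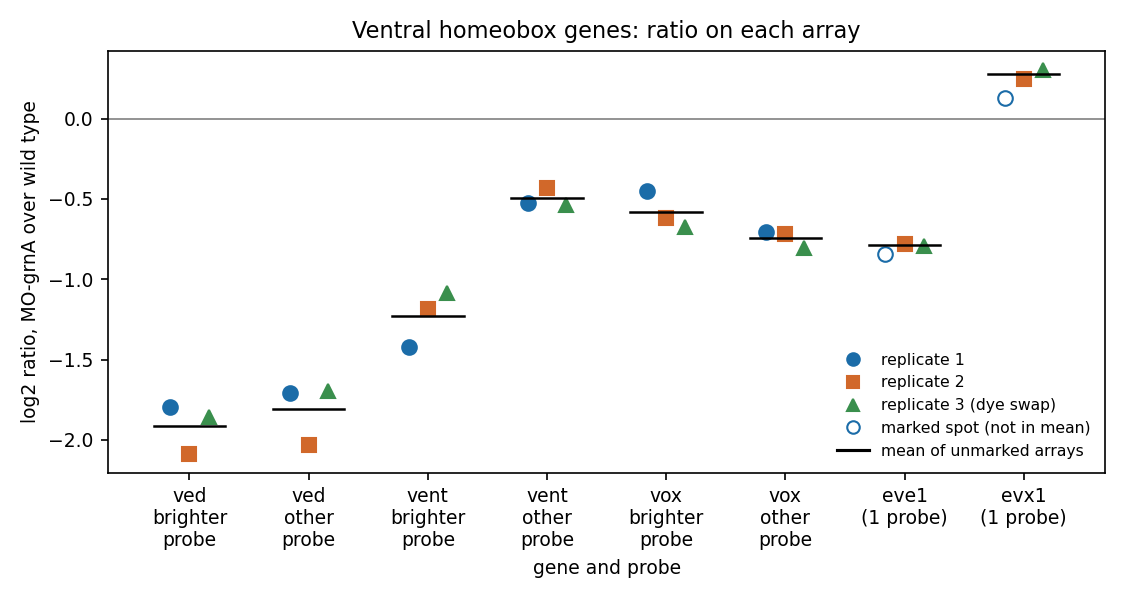
Log2 ratio of MO-grnA over wild type (vertical axis) on each of the 3 arrays for the 8 member probes (horizontal axis). Points are arrays, open points are marked spots and black lines are means over unmarked arrays. Of the 8 probes, 7 lie below 0 on all 3 arrays, and evx1 lies above 0 on all 3.

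The repressor gene ved had the deepest fall. Its brighter probe, A_15_P193956, had normalised intensities of 18421, 15271 and 16412 in the morphant channels of replicates 1, 2 and 3, against 63805, 64803 and 59394 in the wild-type channels. The groups did not overlap: the highest morphant value was 18421 and the lowest wild-type value 59394. The share of all tested probes without overlap was not counted, so nothing is read from this, here or for the genes below. The log2 ratios of the 3 arrays were -1.79, -2.09 and -1.86, with a mean of -1.91 (SD 0.15, moderated SE 0.09, n = 3). This is 3.76-fold lower in morphants, or 26.6% of the wild-type signal. By mean ratio the probe ranked 66 from the lowest among the 25066 tested probes.

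The second ved probe, A_15_P119495, gave nearly the same picture. It had 13494, 10878 and 11296 in morphant channels, against 44035, 44460.2 and 36549 in wild-type channels. Its mean log2 ratio was -1.81 (SD 0.19, SE 0.10, n = 3), 3.51-fold lower in morphants. The brighter probe lay below the other by 0.05 to 0.16 on the log2 scale, depending on the array. The dye-swapped replicate 3 lay between the other arrays on the brighter probe, and on the other probe it was at -1.69, beside -1.71 and -2.03 on replicates 1 and 2.

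For vent, the neighbour and close relative of vox, the size of the fall depended on the probe. The brighter probe, A_15_P118623, had 209, 218 and 239 in morphant channels, against 559.7, 495 and 507 in wild-type channels. Again the groups did not overlap, and the log2 ratios were -1.42, -1.18 and -1.09, with a mean of -1.23 (SD 0.17, SE 0.09, n = 3), 2.35-fold lower in morphants. The other probe, A_15_P153366, had 162, 202 and 189 in morphant channels, against 233, 272 and 275 in wild-type channels. Its mean log2 ratio was -0.50 (SD 0.06, SE 0.08, n = 3), 1.41-fold lower in morphants.

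The brighter vent probe was lower than the other by 0.55 to 0.90 on the log2 scale, on every array. Both probes were dim. Normexp background correction adds an offset of 50 to both channels, which pulls such ratios toward 0. With an offset of 16 the means were -1.39 and -0.60, and with Agilent's own processed signals they were -1.58 and -0.77. The fall in vent was therefore 2.35-fold or 1.41-fold by probe in the main setting, and both probes gave larger falls with less offset, while their gap remained.

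The third repressor gene, vox, was lower by a smaller amount on both of its probes. The brighter probe, A_15_P120974, had 17289, 15351 and 14988 in morphant channels, against 23621, 23537 and 23956 in wild-type channels. Its mean log2 ratio was -0.58 (SD 0.12, SE 0.09, n = 3), or 66.8% of the wild-type signal, with no overlap. Raw intensities of this probe were higher in the morphant channel on replicates 1 and 2 (52819 and 13772.5, against 24730 and 12172). On replicate 3 the raw morphant value was lower (8600 against 27433). The fall on replicates 1 and 2 thus appears only after normalization. The other probe, A_15_P152216, had 2240.0, 2261 and 2244 in morphant channels, against 3661, 3722 and 3915 in wild-type channels. Its mean was -0.74 (SD 0.05, SE 0.08, n = 3), 1.67-fold lower in morphants, and it lay below the brighter probe by 0.10 to 0.26 on every array. Median centring of the arrays in place of loess ended the call of both vox probes (mean log2 ratios of -0.38 and -0.59) and of the dimmer vent probe (-0.42). The ved probes and the brighter vent probe were called in every setting tried.

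**Figure D2:**
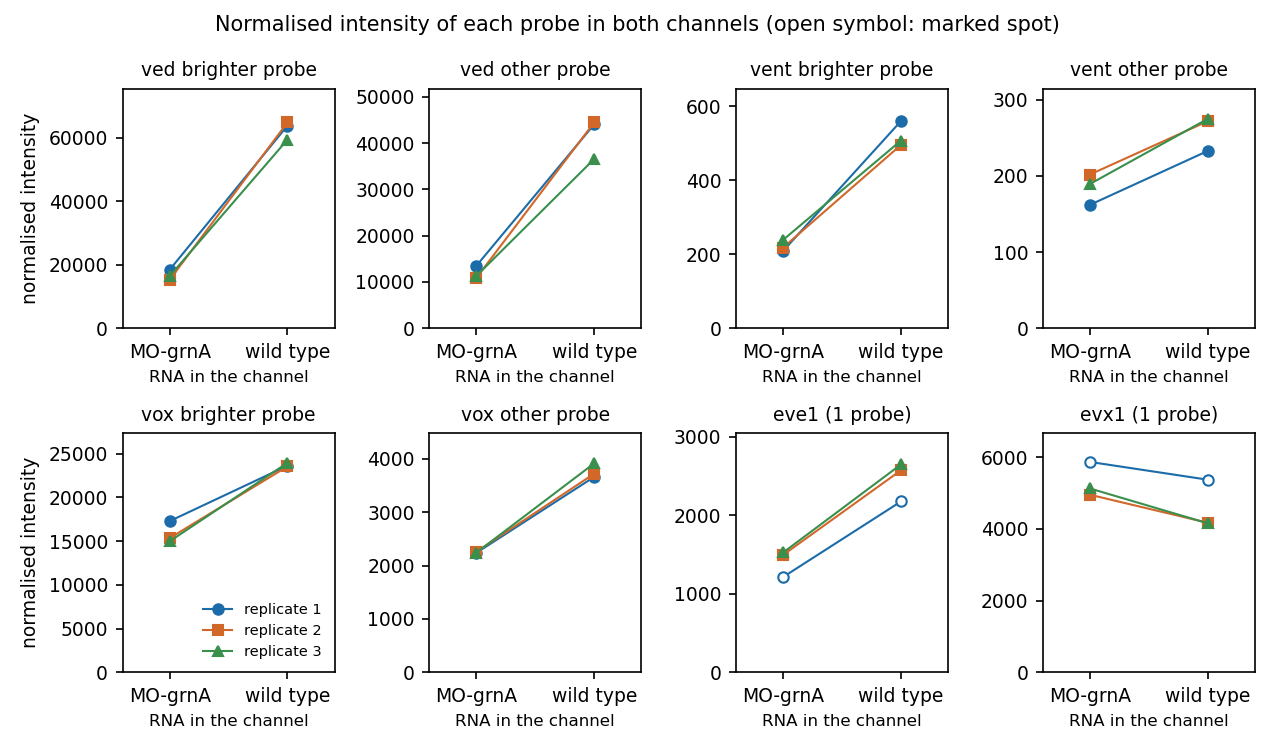
Normalised intensity of each member probe (vertical axis, linear, from 0) in the MO-grnA and wild-type channels (horizontal axis), with a line joining the 2 channels of each array and open symbols for marked spots. The channels do not overlap for any of the 6 ved, vent and vox probes. The share of all tested probes without overlap was not counted, and the genes were chosen with this contrast known. The evx1 probe is the one with the higher signal in morphants.

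The even-skipped relative eve1 was lower in morphants on both unmarked arrays. Its probe had 1495 and 1526 in the morphant channels of replicates 2 and 3, against 2572 and 2646 in the wild-type channels. The log2 ratios were -0.78 and -0.79, with a mean of -0.79 (SD 0.0082, n = 2), 1.73-fold lower in morphants. These arrays shared a slide, and the labels do not say whether their RNA came from separate pools. The SD may thus be a spread between arrays of the same RNA. The marked spots of replicate 1 had 1214 in the morphant and 2175 in the wild-type channel, a log2 ratio of -0.84, close to the unmarked arrays. With marked spots kept, the mean over 3 arrays was -0.81 and the probe was called lower.

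The evx1 probe went the other way. It had 4951 and 5125 in the morphant channels of replicates 2 and 3, against 4170.2 and 4156 in the wild-type channels. Both unmarked arrays had the higher signal in morphants, with log2 ratios of 0.25 and 0.30 and a mean of 0.27 (SD 0.04, n = 2), 1.21-fold higher. The limit given for the eve1 arrays, on separate pools, holds here too. The marked spots of replicate 1 had 5865 in the morphant and 5370.4 in the wild-type channel, a smaller log2 ratio of 0.13. With marked spots kept, the mean was 0.22 and the probe was not called. No probe on the array was matched to its relative evx2, so that gene was not measured.

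Ordered by the log2 ratio of the brightest probe, the genes ran ved, vent, eve1, vox and evx1. On each array ved was below vent, by 0.37, 0.90 and 0.77 on replicates 1, 2 and 3, and vent was below vox, by 0.97, 0.57 and 0.41. The gap between vent and eve1 was 0.58 on replicate 1, where the eve1 spot was marked, and 0.40 and 0.29 on replicates 2 and 3. Adjacent in this order of ratios, eve1 and vox were the closest, 0.17 and 0.12 apart on replicates 2 and 3. The other vox probe (-0.74) was nearer still to eve1 (-0.79). With the mean over the 2 vent probes, vent was at -0.86, which puts it beside eve1. RNA came from whole embryos, so fewer cells expressing a gene and less RNA per cell cannot be told apart for any of these values.

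**Figure D3:**
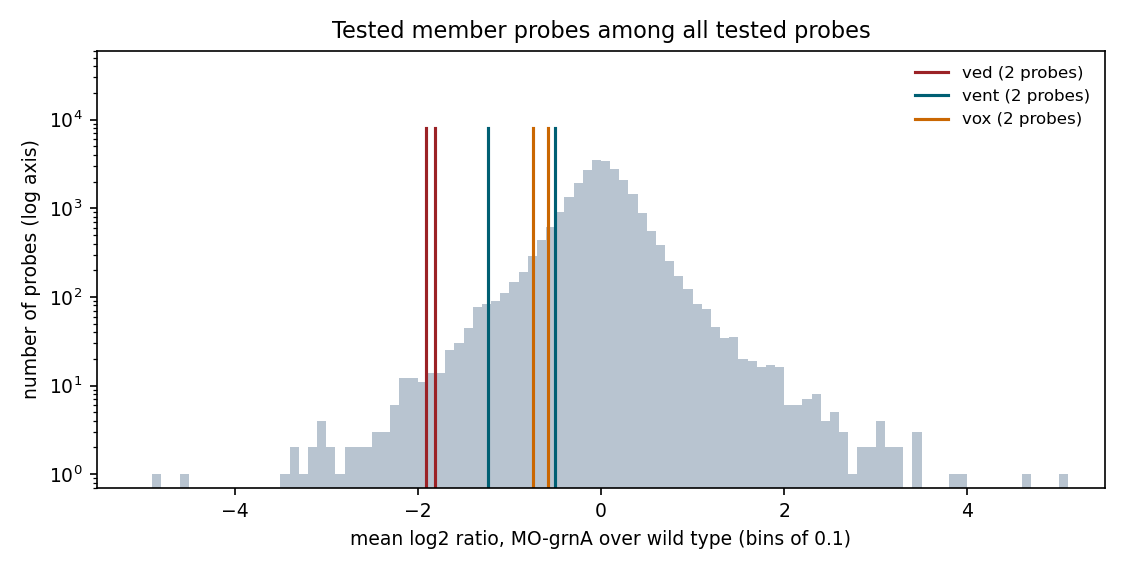
Number of tested probes (vertical axis, log scale) by mean log2 ratio of MO-grnA over wild type (horizontal axis, bins of 0.1), with vertical lines at the 6 tested ved, vent and vox probes. Both ved probes lie in the far lower tail, at -1.91 and -1.81, while the vent and vox probes lie between -1.23 and -0.50.

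Among the 9227 named genes in the fit, those with per-array log2 ratios nearest to ved over the 3 arrays, by Euclidean distance between brightest probes, were sox9b (0.03), ppp1r15a (0.18) and git2b (0.23). Nearest to vent were prkar2aa (0.08), chia.4 (0.12) and hgh1 (0.13). Nearest to vox were il17c (0.04), nek12 (0.06) and chka (0.08). With 3 arrays, this distance mainly says that the mean ratios are alike. The probes of eve1 and evx1 were not in the fit and were not ranked.

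The BMP ligand list holds ligands that act upstream of vox, vent and ved, along with other members of the family. Of its 9 measured genes, 2 rose, 2 fell and 5 did not pass. Their median log2 ratio was -0.11, against -0.001 over all named genes. With median centring in place of loess the ligand median was 0.05, 0 of the 9 were called, and the median of all tested probes moved to 0.10. Of the 26 called genes named here from the pathway lists, 24 lost the call with median centring, and gsc and cdx1a kept it. Over all named genes 41.3% were called, 22% lower and 19.3% higher. The pathway lists were chosen with earlier results of these data known. Nothing is therefore read from a list's called share, here or for the lists below. The ligand gene bmp4 had 5048, 5142 and 5163 in morphant channels, against 9547, 6746 and 7507 in wild-type channels. It fell by 0.62 on the log2 scale (SE 0.11, n = 3, limma adjusted p = 0.00388), and was lower on all 3 arrays. A second bmp4 probe, marked on 1 array and not tested, had log2 ratios of 0.55, 0.15 and 0.03 and so opposed the first. The gene of the ligand that pairs with Bmp2b, bmp7a, was called lower (limma adjusted p = 0.00556), but its probe was dim and well above background in morphants on 1 of 3 arrays. It passed the filter only through the wild-type channel, where it is higher. With both channels required above background, bmp7a was not tested, and of 8 ligand genes 2 rose and 1 fell. The size of the bmp7a fall depended on the background correction, with a log2 ratio of -0.58 at an offset of 50, -0.88 at an offset of 16 and -1.87 with Agilent's own ratios.

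The main gastrula ligand gene, bmp2b, did not pass (-0.16, SE 0.09, limma adjusted p = 0.184). Its paralogue bmp2a (0.33, adjusted p = 0.0145) and bmp6 (0.31, adjusted p = 0.0223) rose. The bmp2a call ended without replicate 2 or replicate 3 (adjusted p of up to 0.0728), and the bmp6 call ended without replicate 1 or replicate 2 (adjusted p of up to 0.104) and with a dye term (adjusted p = 0.0581). Without replicate 2, 2 ligand genes were called in place of 4.

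Of the receptor and Smad genes, which relay the BMP signal into the nucleus, 3 of the 14 measured genes were lower by the test, 0 were higher and 11 did not pass. Called genes made up 21.4% of the measured ones, beside 41.3% of all named genes. The list median was -0.003, with a sign that turned between settings, and 0.13 with median centring. The type I receptor gene bmpr1ab fell by 0.67 (SE 0.10, adjusted p = 0.00178 in limma), although its other probe gave -0.13 and was not called. The second receptor gene, bmpr1aa, fell by 0.29 (adjusted p = 0.0249), and its call ended when any replicate was left out (adjusted p of up to 0.104), with Agilent's own ratios (adjusted p = 0.0547) and in the fit with a dye term (adjusted p = 0.0522). Its other probes (0.01 and -0.19) were not called, and the mean over its probes was -0.16 (limma adjusted p = 0.109). The signal transducer gene smad1 fell by 0.37 (adjusted p = 0.0293), and its call ended without replicate 2 or replicate 3 (adjusted p of up to 0.160) and with a dye term (adjusted p = 0.0675). Its partner smad5 was near 0 (-0.01, adjusted p = 0.950). Without replicate 2 or replicate 3, or with a dye term, 1 gene of this list was called.

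Among the secreted and membrane modulators of BMP, 1 of 12 measured genes rose, 4 fell and 7 did not pass. Their median was -0.08 (0.08 with median centring). The called share of 41.7% was near the 41.3% of all named genes. Chordin, the antagonist that Vox, Vent and Ved keep out of ventral tissue, is encoded by chrd. It had 1782, 1727 and 1697 in morphant channels, against 3798, 4170.2 and 3733 in wild-type channels. This is a fall of 1.17 (SE 0.08, n = 3, limma adjusted p = 4.4e-05), 2.25-fold lower in morphants with no overlap. The tolloid-family protease gene bmp1b rose by 0.65 (adjusted p = 0.00108). The twisted gastrulation gene twsg1a fell by 0.52 (adjusted p = 0.00242) and the noggin gene nog1 by 0.29 (adjusted p = 0.0266). The nog1 call ended when any replicate was left out (adjusted p of up to 0.120), with Agilent's own ratios (adjusted p = 0.0636) and in the fit with a dye term (adjusted p = 0.0658), and 3 genes of the list were called without replicate 2 or with a dye term.

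The falls among other measured genes known as BMP targets were smaller than that of ved. The largest, in gata2a (-0.61), was near that of the brighter vox probe (-0.58). The members were chosen with this contrast known, so this order is a description only. By brightest probe, the 17 measured genes had 4 falls, 0 rises and 13 that did not pass. The called share was thus 23.5%, beside 41.3% of all named genes. With the mean over the probes of a gene there were 4 falls and 2 rises, and other probes of id2a, tfap2c (0.36) and tp63 (0.28) were called higher. The median of the 17 genes was -0.08 (0.08 with median centring) and their range -0.61 to 0.24. Other targets on the array, among them id1, id4, msx1a and msx2b, were left out of the fit by marked spots. With marked spots kept, all 23 targets on the array were measured, with 4 falls, 1 rise and a median of -0.04. The GATA factor genes gata2a (-0.61, limma adjusted p = 8.2e-04) and gata3 (-0.45, adjusted p = 0.00336) and the ectodermal forkhead gene foxi1 (-0.50, adjusted p = 0.00281) fell. So did tbx2b (-0.36, adjusted p = 0.0421), whose call ended without replicate 1 or replicate 2 (adjusted p of up to 0.164), with a dye term (adjusted p = 0.0623), with Agilent's own ratios and with an offset of 16. The direct BMP response genes id2b (-0.02) and id3 (-0.02), which are named after their values were seen, did not pass. For id2a, named likewise, the brightest probe (0.16) did not pass and the other probe (0.55) was called higher.

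**Figure D4:**
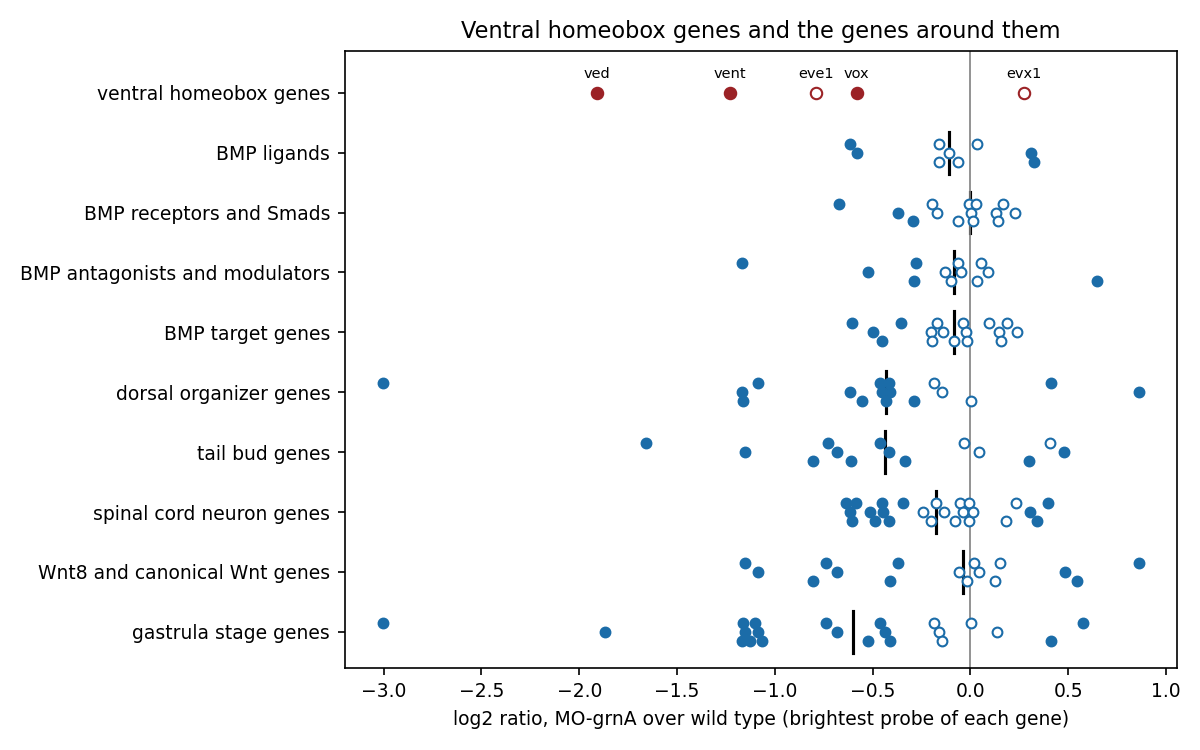
Log2 ratio of MO-grnA over wild type (horizontal axis) of the brightest probe of each measured gene, by gene list (vertical axis). Filled points were called, open points were not called or, for eve1 and evx1, not tested, and black bars are list medians. Organizer, tail bud and gastrula stage lists have medians between -0.60 and -0.43 (-0.44 to -0.26 with median centring), and the 4 BMP lists have medians between -0.11 and -0.003 (0.05 to 0.13 with median centring). Lists share genes, so these medians are not independent of one another.

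Genes of the dorsal organizer, some of which Vox, Vent and Ved are known to repress at gastrulation, were mostly lower, as were the repressor genes. Among the 17 measured genes there were 12 falls and 2 rises, with 3 that missed the threshold and a median of -0.43. The called share was 82.4%, beside 41.3% of all named genes. This list too was chosen with earlier results known, so the share is a description only. With median centring 1 was called, gsc, and the median was -0.26. The organizer homeobox gene gsc had 259, 329.6 and 351 in morphant channels, against 2503, 2428 and 2556 in wild-type channels. It fell by 3.01 (SE 0.10, n = 3, adjusted p = 2.3e-06 in limma), 8.03-fold lower in morphants, and was the single organizer gene with a larger fall than ved. The Nodal antagonist gene lft1 was 2.24-fold lower (-1.16, adjusted p = 4.5e-05) and the secreted Wnt antagonist gene frzb 2.12-fold lower (-1.09, adjusted p = 5.7e-05). The dharma probe was not well above background in either group on any array, so no fold is given for this organizer gene.

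Wnt8, the second signal that drives vox, vent and ved, is encoded by wnt8a. Its brighter probe had 357, 361 and 405 in morphant channels, against 828, 789 and 883 in wild-type channels. It fell by 1.15 (SE 0.08, n = 3, limma adjusted p = 3.9e-05), 2.23-fold lower in morphants, with no overlap between groups. In the list of Wnt8 and canonical Wnt genes, 3 of 16 measured rose, 7 fell and 6 did not pass, with a median of -0.04. The called share was 62.5%, beside 41.3% of all named genes, and it is a description only, as for the other lists. The median was -0.13 without replicate 1 and -0.10 without replicate 3, and with median centring it was 0.15 and 0 of the 16 were called. The zinc finger genes sp5l (-0.80, adjusted p = 2.5e-04) and sp5a (0.86, adjusted p = 5.0e-04), both mediators of Wnt responses, moved in opposite directions on their tested probes. Of the 2 sp5a probes, 1 was tested, and the brighter one carried a mark and was left out. With marked spots kept, that brighter probe stood for sp5a, at 0.22 and not called. The sp5a rise thus rests on its dimmer probe.

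Tail bud genes, with which eve1 is expressed at later stages, were mostly lower. Falls numbered 9 and rises 2 among the 14 measured genes, with 3 that missed the threshold and a median of -0.44. Called genes made up 78.6% of these, beside 41.3% of all named genes. As the list was chosen with earlier results known, nothing is read from this share. With median centring 1 was called, cdx1a, and the median was -0.29. The caudal-related homeobox gene cdx1a had 1489, 1675 and 1763 in morphant channels, against 5439, 4990.1 and 5073 in wild-type channels. It fell by 1.66 (SE 0.10, n = 3, limma adjusted p = 1.7e-05), 3.15-fold lower in morphants, although its other probe gave -0.33. The growth factor gene fgf8a fell by 0.73 (adjusted p = 3.3e-04).

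Spinal cord interneuron and motor neuron genes, the later setting of evx1, included both falls and rises. Of 25 measured, 3 rose, 10 fell and 12 did not pass, with a median of -0.17, where 22% of all named genes were called lower and 19.3% higher. With median centring 0 were called and the median was -0.03. The falls included pax2a (-0.64, limma adjusted p = 7.6e-04) and lhx1a (-0.61, adjusted p = 0.00932), both listed for interneurons, gata2a (-0.61, as above), and the motor neuron gene mnx1 (-0.59, adjusted p = 0.00260). Other pax2a probes gave -0.55, -0.40 and -0.22, the last not called, and lhx1a is also in the organizer list. RNA came from whole embryos, so these values are not those of the spinal cord alone. The 3 rises, named after their values were seen, were dbx1b (0.40, limma adjusted p = 0.0060) and ascl1b (0.34, adjusted p = 0.0309), both of neural progenitors, and olig2 (0.30, adjusted p = 0.0219), of motor neuron progenitors. The evx1 ratio of 0.27 thus lay above the median of this list. That difference was not tested.

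Genes of gastrula stages moved beside the ventral genes, and the lists share members with those above. Among their 22 measured members 15 fell and 2 rose, with 5 that missed the threshold and a median of -0.60, where 41.3% of all named genes were called. With median centring 2 were called and the median was -0.44. On replicates 1, 2 and 3 this median was -0.68, -0.58 and -0.65. Their summed normalised intensity was 76231 to 82826 in morphant channels, against 117385 to 133127 in wild-type channels. Each measured gene was well above background on at least 1 array in both groups, which the filter on tested probes largely sets. Of the 33 measured tissue markers of the later embryo, 12 rose, 6 fell and 15 did not pass. These counts use the brightest probe of each gene, and some other probes differed. For acta1b (0.77, called higher) the other probe was called lower (-0.41). For klf17 and tp63, not called, other probes were called lower (-0.24 and -0.49) and higher (0.28) in turn. Counts of these markers with median centring were not made. The part of embryonic stage in the values of ved, vent, vox and eve1 was not tested.

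**Figure D5:**
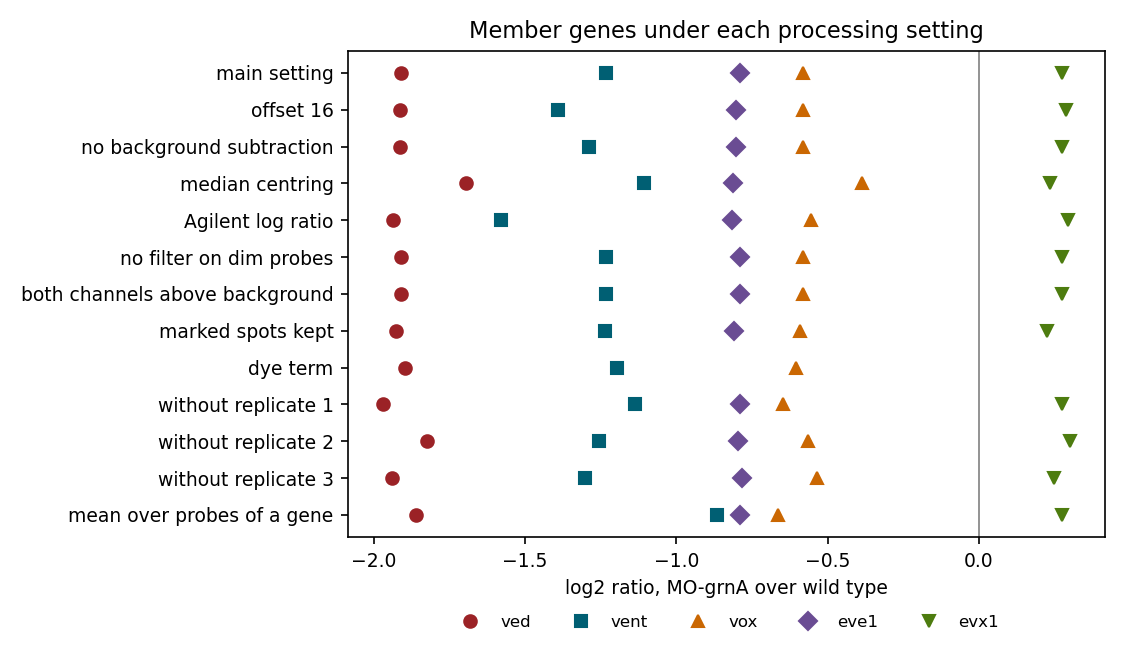
Log2 ratio of MO-grnA over wild type (horizontal axis) of the 5 genes under the main setting and each alternative (vertical axis). The order of genes is the same in the main setting and with median centring, ved stays between -1.97 and -1.69, and vent is at -0.86 with the mean over its 2 probes.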

How the data were processed

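The authors scanned 3 two-colour arrays of Agilent design 019161 and made the spot values in Agilent Feature Extraction, version 8.5.1.1 per the submitters' processing notes and 10.5.1.1 per the file headers. The deposited spot intensities are median pixel values and local backgrounds, per the file headers, beside flags of 0 or 1 for each spot. The deposited log10 ratios are red over green of Agilent's processed intensities. The value table holds the same log10 ratios with replicate 3 turned (largest difference 4.95e-06) and column medians of 0.

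In limma 3.58.1 under R 4.3.3, medians were background-corrected with normexp (offset 50) and loess-normalized, with control and marked spots at weight 0. Replicate 3 was turned by its dye labels, so ratios are log2 of morphant over wild type. Normalised intensities are channel values after loess and Aquantile. Probes well above background on all 3 arrays in either channel (28688) and unmarked on all 3 were tested (25066), with lmFit and eBayes, two-sided, and Benjamini-Hochberg adjustment. Files name 43603 probes, 16770 of them matched through RefSeq (GRCz12tu). A gene is given by its brightest tested probe.

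The members and the 8 gene lists were chosen with earlier results of these data known. Named genes are all member probes, up to 4 called genes of largest change per list, bmp2b, bmp4, bmp7a, szl, wnt8a, evx2, gsc and dharma where measured, and the 3 nearest genes per member. Other probes of a named gene are given where they differ by more than 0.5. The rule's list of other homeobox genes was not analysed here, since the tables used hold no gene descriptions. The test was checked on simulated data with independent noise. Of 100 probes changed by a log2 size of 1 it recovered 73%, and of 100 changed by 2 it recovered 97%. These were the only changed probes among 25066, and 3 unchanged probes were called. In the real data 37.6% of tested probes were called, so the adjusted threshold differs. The recovered shares are therefore not the power of this contrast. Smaller changes, such as those of vox, were not simulated.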

Additional observations from a re-analysis of the deposited data

How the results depend on the processing

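Calls over all probes numbered 9435 in the main setting (47.8% of them higher) and 715 with median centring (409 higher, 306 lower, 57.2% higher). Leaving out 1 replicate gave 6187 to 8233 calls, the lowest without replicate 3. Of the 6 tested member probes, 3 were called with median centring (both of ved and the brighter one of vent) and 6 under every other alternative except marked spots kept, where 7 of 8 were called. The vox ratio was -0.38 with median centring. The eve1 ratio (-0.79) was -0.80 with offset 16 and with no background subtraction, -0.81 with median centring and with marked spots kept, and -0.82 with Agilent's ratio. The evx1 ratio was 0.22 with marked spots kept. The cause of these shifts was not tested.

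With median centring, 0 BMP ligand, receptor and Smad, antagonist, target, spinal cord and Wnt genes, 1 organizer, 1 tail bud and 2 gastrula genes were called. The medians were then 0.047 (ligands), 0.13 (receptors and Smads), 0.077 (antagonists), 0.082 (targets), 0.15 (Wnt), -0.26 (organizer), -0.29 (tail bud), -0.028 (spinal cord) and -0.44 (gastrula). With Agilent's ratio 3 antagonists were called, and the medians were -0.066 (ligands), 0.010 (receptors and Smads), -0.22 (spinal cord) and -0.70 (gastrula). With a dye term 3 antagonists and 1 receptor gene were called. With no filter on dim probes the medians were -0.065 (ligands), 0.0023 (receptors and Smads), -0.13 (spinal cord), -0.41 (tail bud) and -0.49 (gastrula), and with no background subtraction the receptor median was 0.0015. With both channels above background the medians were -0.46 (tail bud) and -0.68 (gastrula). With marked spots kept they were -0.38 (tail bud) and -0.14 (spinal cord). With the mean over probes they were -0.065 (ligands), -0.033 (targets), -0.13 (spinal cord), -0.51 (tail bud) and -0.67 (gastrula).

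Leaving out each replicate gave 2 to 3 called ligands, 1 to 2 receptors and Smads and 3 to 4 antagonists. It gave medians of -0.11 to -0.050 for ligands, -0.070 to 0.048 for receptors and Smads, -0.17 to -0.093 for antagonists, -0.13 to -0.071 for targets, -0.13 to -0.052 for Wnt genes and -0.17 to -0.13 for spinal cord genes.

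The main test already pairs morphant with wild type, within each array. Beyond that, no paired analysis was possible because the 3 ratios form 1 group. Slide as a random block could not be fitted on 3 arrays. Dim probes such as those of vent are limited by signal over background.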
